A study of Homo sapiens with 2 samples.

Results

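The 14-3-3 proteins are a family of small acidic adaptor proteins, described here across 2 arrays of a gastric cancer cell line. They were taken by gene symbol: the 6 YWHA isoforms YWHAB (beta), YWHAE (epsilon), YWHAG (gamma), YWHAH (eta), YWHAQ (theta) and YWHAZ (zeta), and SFN (sigma, also called stratifin). These are 7 of the 19775 genes with a probe set that names them alone, and they are read by 20 probe sets, where a probe set is several short probes that read the same stretch of RNA. The family was chosen by name after the intensities of these same 2 arrays had been seen, among them the difference of YWHAZ between Sox2 and control. Its differences are therefore given as a description and without a test.

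The study compared MKN28 cells labelled as overexpressing Sox2, a transcription factor active in stem cells and foregut epithelium, with MKN28 cells labelled as control, 1 sample and 1 Affymetrix array each. MKN28 is an established human gastric adenocarcinoma line and is known to be misidentified, its cells tracing to the gastric line MKN74. Both cultures were grown in RPMI1640 with fetal bovine serum, penicillin and streptomycin. The Sox2 cells were made with a lentivirus, lenti-Sox2, that also carries puromycin resistance, and were selected at 2 μg/mL puromycin for 3 to 5 days, which left a selected population and not a clone as far as the labels say. The labels do not say what the control cells, titled NC, received, so any effect of the virus or of puromycin cannot be told apart from that of Sox2. With 1 array a group there is no replicate error, and every difference below is between those 2 arrays.

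14-3-3 proteins form dimers, and each subunit holds a groove that binds a phosphorylated serine or threonine on a partner protein. Binding can keep a partner in the cytoplasm, cover a site on it or hold it in a given shape, and partners include regulators of the cell cycle, of growth factor signalling, of apoptosis and of the Hippo pathway. The YWHA isoforms are made in most tissues, and YWHAZ is often used as a reference gene. SFN is made mainly in epithelial cells, mostly pairs with itself, is a target of the tumour suppressor p53 and holds cells at G2 after DNA damage.

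The stretches just before the transcription starts of the genes show how SFN and the YWHA isoforms differ in sequence. Promoters of 6 of the 7 members were matched by symbol in the RefSeq table for GRCh38.p14, and the 250 bases before each start were read, 5′ to 3′ on the strand of the gene. Those of SFN, YWHAG and YWHAB are shown because SFN is the tissue-restricted member and the 2 isoforms are widely expressed ones with bright probe sets. Capitals mark each CG dinucleotide, the site of DNA methylation.
SFN, chr1:26862899-26863148, plus strand: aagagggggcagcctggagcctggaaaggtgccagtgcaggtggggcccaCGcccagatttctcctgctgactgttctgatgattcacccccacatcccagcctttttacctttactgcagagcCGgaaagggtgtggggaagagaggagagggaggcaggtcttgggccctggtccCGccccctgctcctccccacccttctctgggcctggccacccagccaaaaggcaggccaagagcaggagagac
YWHAG, chr7:76358992-76359241, minus strand: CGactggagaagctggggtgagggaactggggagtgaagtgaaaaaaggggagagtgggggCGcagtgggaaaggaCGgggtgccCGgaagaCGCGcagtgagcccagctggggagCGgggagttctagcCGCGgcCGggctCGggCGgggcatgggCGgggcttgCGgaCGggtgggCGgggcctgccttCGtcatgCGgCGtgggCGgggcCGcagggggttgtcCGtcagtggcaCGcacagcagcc
YWHAB, chr20:44885455-44885704, plus strand: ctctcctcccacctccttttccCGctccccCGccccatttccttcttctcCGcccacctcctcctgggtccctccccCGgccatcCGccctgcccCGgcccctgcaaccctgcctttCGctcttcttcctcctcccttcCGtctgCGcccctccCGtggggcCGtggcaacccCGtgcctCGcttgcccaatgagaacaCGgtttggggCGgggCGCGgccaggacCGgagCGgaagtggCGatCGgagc

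The SFN stretch holds 3 CG dinucleotides, fewer than the median of 11 over the 35116 promoters of the table. YWHAB holds 21, YWHAG 23, YWHAQ 28, YWHAE 29 and YWHAH 34. G and C make up 62.8% of the SFN stretch and between 70.4% and 72.0% of those of the 5 YWHA isoforms matched. The ratio of observed to expected CG, which corrects for base content, is 0.122 for SFN and runs from 0.761 for YWHAB to 1.08 for YWHAH, with a median of 0.558 over all promoters. The letters CTTTGT and CATTGT, forms of the short core that SOX factors bind, were searched on both strands. Neither is found in any of the 6 member windows, against 13.7% of all promoters for CTTTGT and 9.29% for CATTGT. No match says only that these letters are not in these windows.

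SOX2 itself was read by 4 probe sets, the brightest at 172.1 with Sox2 and 122.9 without, a log2 difference of 0.49. The others differed by 0.31, -0.023 and -0.46. The label was therefore not borne out by a clearly higher SOX2 reading, and it is not known here which of these probe sets the viral copy can reach. Directions below therefore rest on the labels. Of the epithelial markers, EPCAM read 4.96 and 6.32, KRT8 50.25 and 44.64, KRT18 70.12 and 88.53, KRT19 40.57 and 37.71, and CDH1 78.58 and 91.27, in the order Sox2 and control. Of 16 epithelial markers with a probe set, 14 reached 34.25, the median over all probe sets, in at least 1 array. So did 14253 of all 19775 genes and 4 of 6 leukocyte and endothelial genes, so this count does not mark the cells as epithelial. Among the 16, only CLDN4, at 148.5 and 166.8 and named after its value was seen, reached the 95th percentile of all probe set values, 159.3. In the mesenchymal and fibroblast list 7 of 14 genes reached it, and 2235 of all 19775 genes did. The markers thus did not bear out an epithelial line, though levels of different probe sets do not order transcripts by abundance. VIM, a mesenchymal filament protein, read 5833 and 4288 by its brighter set and by another 10.73 and 9.45. The lowest value of any probe set was 1.0, so a listed value does not show that a marker was detected. The summed brightest probe sets were 1001 and 1018 for the epithelial list, 8162 and 6418 for the mesenchymal and fibroblast list, and 348.1 and 337.9 for 6 leukocyte and endothelial genes.

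Among the 14-3-3 genes, 5 of the 6 YWHA isoforms read higher in the array labelled Sox2 by their brightest probe set, by 1.53-fold to 1.92-fold, and YWHAE read 1.19-fold lower. SFN read 1.22-fold higher. None of the 7 differed by 2-fold, where 2.69% of the 14253 genes past the filter did in either direction, 2.05% upward and 0.645% downward. The filter keeps a gene when the higher of its 2 values reaches that median of all probe set values, and all 7 members passed by their brightest probe set. At 1.5-fold, 5 of 6 YWHA isoforms were higher and none lower, where 6.46% of all genes past the filter were higher and 3.77% lower. Among genes whose higher value reached the 95th percentile of intensities, a level that YWHAB, YWHAE, YWHAG, YWHAQ, YWHAZ and SFN share, 22.9% were higher by 1.5-fold and 9.35% lower. The median log2 difference was 0.75 for the 6 YWHA isoforms, or 1.68-fold, and -0.0032 for all genes past the filter. These values rest on the brightest probe set: with the probe sets of each gene averaged, 2 of the 6, YWHAG and YWHAZ, were higher by 1.5-fold and the median was 0.38. That average takes in 7 of the 17 YWHA probe sets that lie under the filter. Of the 10 YWHA probe sets past it, 4 of them from YWHAZ, 9 were higher, 7 by 1.5-fold, with a median of 0.75. The family was picked with these values known, so nothing particular to it is read from the counts.

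**Figure D1:**
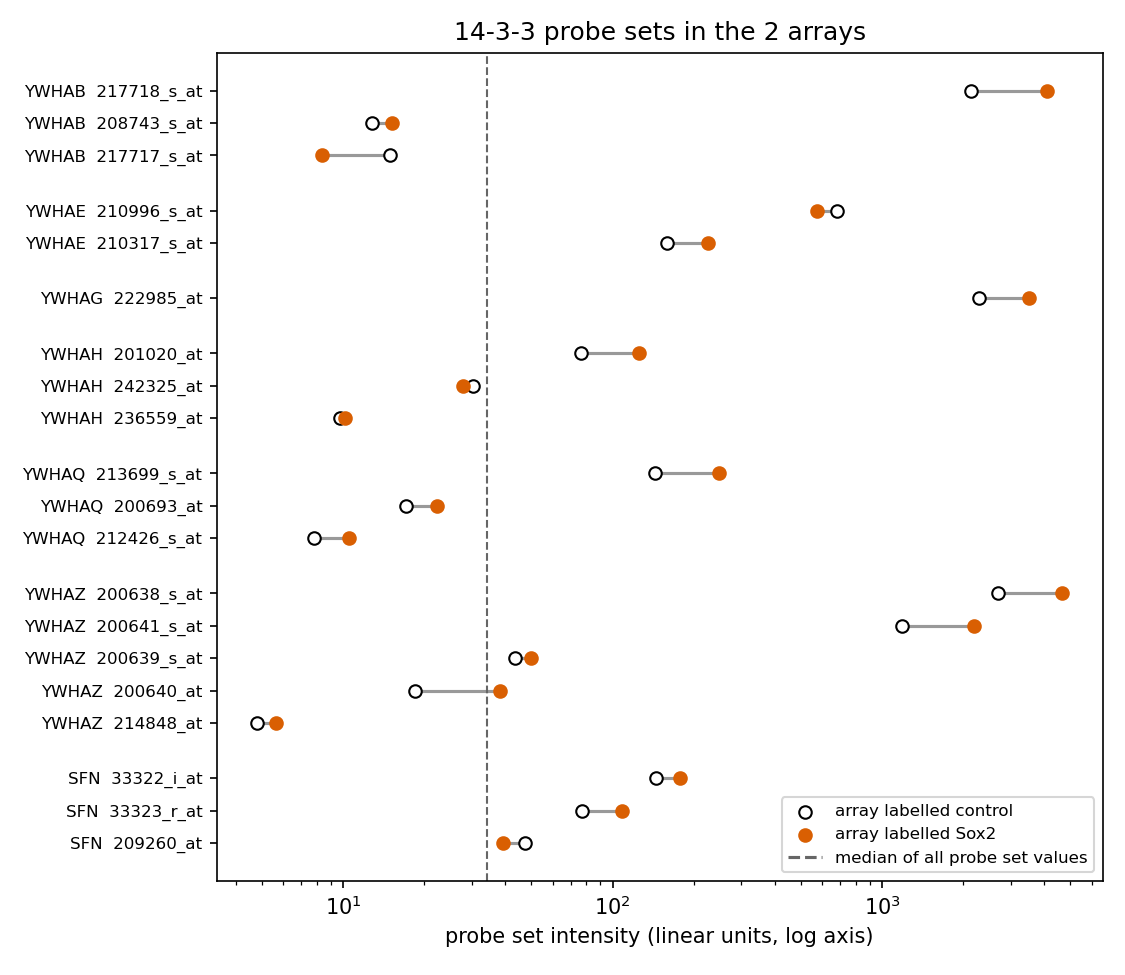
Intensity of each of the 20 probe sets of the 7 genes on a log axis, with an open point for the array labelled control, a filled point for the array labelled Sox2, and a dashed line at the median of all probe set values (34.25). The brightest probe sets of YWHAB, YWHAG and YWHAZ lie above 2000 in both arrays, while other probe sets of YWHAB and YWHAZ lie below 20 in both.

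YWHAZ, the zeta isoform, is the member read by the most probe sets and the only member whose difference reached 2-fold by any of them. Its brightest probe set, 200638_s_at, read 4665.82 with Sox2 and 2698.61 in the control, ranks 95 and 159 of 54675, a log2 difference of 0.79. A second bright one, 200641_s_at, read 2186.46 and 1182.57 (0.89). All 5 YWHAZ probe sets read higher in the array labelled Sox2, which was the case for 9.67% of the 662 genes past the filter with 5 probe sets, counting those that lie all on either side. The probe sets 200639_s_at and 200640_at, designed on the same RefSeq transcript, gave different sizes: 49.92 against 43.33 (0.20) and 38.24 against 18.48 (1.05, 2.07-fold). Probe set 200640_at, the only one at 2-fold, passed the filter of 34.25 only by its value in the array labelled Sox2. The last, 214848_at, was near the bottom of the range at 5.64 and 4.8 (0.23). The brightest and the dimmest YWHAZ probe set thus differ 682-fold in level, wider than for 99.4% of the genes with as many probe sets, whose median was 7.45-fold. Binding strength differs between probe sets, so levels and ranks do not order transcripts by abundance.

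YWHAB, the beta isoform, a partner of RAF kinases, had the largest difference by the brightest probe set, and the poorest agreement of the family. Probe set 217718_s_at read 4107.92 with Sox2 and 2140.4 in the control, ranks 114 and 191 and a log2 difference of 0.94. The other 2 fell below the filter and pointed in opposite directions. Probe set 208743_s_at read 15.16 and 12.83 (0.24), and 217717_s_at read 8.35 and 14.89 (-0.83). The differences of the 3 probe sets span 1.77 on the log2 scale, against a median of 0.48 over the 2370 genes past the filter with 3 probe sets, and that span is wider than for 98.4% of them. The reading of YWHAB as higher rests on a single probe set, and the mean of its 3 differences was 0.12.

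YWHAG, the gamma isoform, has a single probe set here, so no agreement can be given. Probe set 222985_at read 3513.65 with Sox2 and 2292.6 in the control, ranks 134 and 173, a log2 difference of 0.62 or 1.53-fold. It was among the brightest probe sets of both arrays.

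YWHAQ, the theta isoform, first described in T cells, read higher by all 3 of its probe sets. Probe set 213699_s_at read 247.35 with Sox2 and 143.93 in the control, at percentiles 96.96 and 94.32 of all probe sets, with a log2 difference of 0.78. The other 2 lay under the filter at 22.38 and 17.07 (0.39) for 200693_at and 10.55 and 7.79 (0.44) for 212426_s_at. A span of 0.39 between the 3 differences was narrower than the median of 0.48 for genes with 3 probe sets. All 3 lay on the same side, as they did in 27.7% of such genes.

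YWHAH, the eta isoform, is read at a moderate level. Probe set 201020_at read 124.88 with Sox2 and 76.4 in the control, at percentiles 92.61 and 83.19, a log2 difference of 0.71. The other 2 were under the filter and differed little, with 27.82 and 30.29 (-0.12) for 242325_at and 10.16 and 9.77 (0.056) for 236559_at. The antisense gene YWHAH-AS1, which overlaps YWHAH in the RefSeq annotation, read 71.42 and 61.08 (0.23) by its own probe set.

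YWHAE, the epsilon isoform, regarded as the most conserved of the family, was the exception among the YWHA genes, and its probe sets disagreed in direction. Both lay well above the filter. Probe set 210996_s_at read 574.08 with Sox2 and 683.63 in the control (-0.25), and 210317_s_at read 225.21 and 159.81 (0.49). The gap of 0.75 between the 2 differences was wider than for 88.5% of the 3857 genes past the filter with 2 probe sets, whose median was 0.28. The mean of both was 0.12, and centring the arrays on spike-in controls (bacterial RNA added ahead of labelling) also put the brighter above 0, at 0.50, so the direction of YWHAE depends on the probe set and scaling taken. YWHAEP7, a transcribed pseudogene of YWHAE, was bright by a probe set of its own at 168.5 and 201.4 (-0.26), and read 14.7 and 13.83 (0.088) by another.

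SFN, the epithelial member, was read by 3 probe sets, all past the filter, that also disagreed in direction. Probe set 33322_i_at read 177.74 with Sox2 and 145.52 in the control, at percentiles 95.59 and 94.40, a log2 difference of 0.29. Probe set 33323_r_at, designed on the same transcript record, read 108.68 and 76.99 (0.50). Probe set 209260_at, designed on another, read 39.28 and 47.31 (-0.27). The suffixes _i_at and _r_at mark probe sets for which the usual rules of probe choice could not all be kept. The 3 differences span 0.77, wider than for 74.6% of genes with 3 probe sets, while the 3.73-fold spread of their levels was close to the median of 4.03-fold for such genes. The mean of the 3 was 0.17, and whether SFN was higher or lower in the array labelled Sox2 is not settled by these probe sets.

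The spread between probe sets of a gene gives a technical scale for these values. Over 3471 genes with exactly 2 probe sets above the filter, a single log2 difference had a robust SD of 0.28, which makes 0.39 for the gap between 2 probe sets. This scale leaves out any variation between cultures or arrays. SFN lay below YWHAB by 0.65 on the log2 scale, below YWHAZ by 0.50, below YWHAQ by 0.49, below YWHAH by 0.42 and below YWHAG by 0.33, and above YWHAE by 0.54. In units of the technical SD of such a gap these are between 0.84 for YWHAG and 1.67 for YWHAB. SFN minus the YWHA median was -0.46, or 1.37-fold less. With the mean of all probe sets of each gene in place of the brightest, that gap was -0.20. The YWHA isoforms then lay between 0.12 and 0.63, all 6 above 0, and 2 of them, YWHAB and YWHAE, lay below SFN. These means are not alike, since 7 of the 17 YWHA probe sets were under the filter, 2 of them of YWHAB, while all 3 of SFN passed it. The contrast between SFN and the YWHA isoforms is thus of the size of the disagreement between probe sets of the same gene, and no test of it is possible with 1 array a group.

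**Figure D2:**
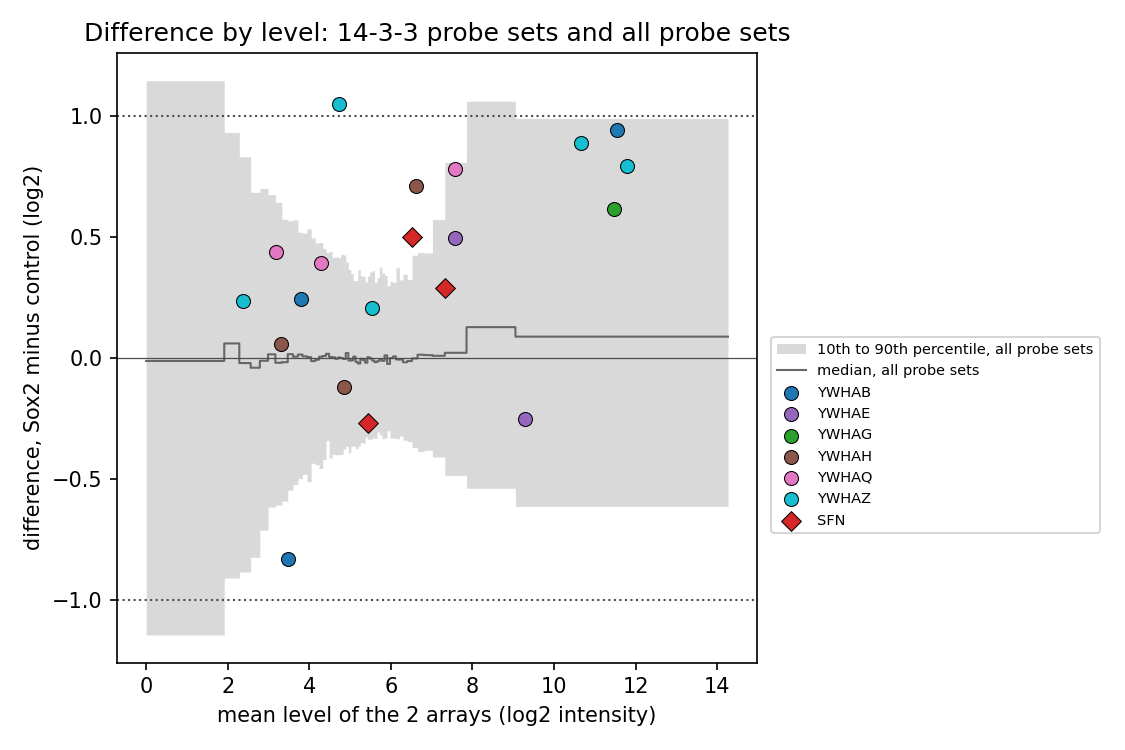
Log2 difference, Sox2 minus control, against the mean log2 level of each 14-3-3 probe set, with the 10th to 90th percentile and the median of all probe sets in consecutive bins of 1000 by level (grey) and dotted lines at 2-fold. The bright YWHAB, YWHAG and YWHAZ probe sets lie inside the wide grey band of bright probe sets, while YWHAH 201020_at, YWHAZ 200640_at and SFN 33323_r_at lie above the band at their level.

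Level moved with these differences. Around each member probe set 1000 others were taken in order of mean level, which describes these 2 arrays and is no test. The bright probe sets of YWHAB, YWHAG and YWHAZ lie near the top of that order. They share the same window, the 1000 brightest others, which is not centred on them and reaches to lower levels. In it differences were spread from -0.60 at the 10th to 1.04 at the 90th percentile with a median of 0.14. There YWHAB lay at percentile 86.2, YWHAZ at 79.8 and 83.7, and YWHAG at 73.0. YWHAE 210996_s_at lay at percentile 24.6 of its window and YWHAQ 213699_s_at at 89.5. At moderate levels the spread was narrower. YWHAH 201020_at lay at percentile 95.9 of a window that ran from -0.39 to 0.42, YWHAZ 200640_at at 99.8, and the 3 SFN probe sets at 76.9, 93.6 and 16.2. Of the 20 probe sets 16 lay between the 10th and the 90th percentile of their windows. The 4 outside were these YWHAH and YWHAZ probe sets, SFN 33323_r_at and, at the low end, YWHAB 217717_s_at at percentile 3.8.

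Gene length moved with the differences as well. By the RefSeq table for GRCh38.p14, SFN spans 1308 bases of the genome and the YWHA isoforms from 13069 for YWHAH to 55948 for YWHAE. Over 14232 genes past the filter with a length, the median log2 difference was -0.052 for the 685 genes of up to 2000 bases and -0.00030 for the 6521 of over 10000 and up to 60000. Among genes above the 95th percentile of intensities it was -0.24 for 96 genes in the short class and 0.096 for 1055 in the longer, and 3.12% and 20.3% of them were higher by 1.5-fold. SFN at 0.29 lay above the median of its class and the YWHA median of 0.75 above that of its own. The part of level and of length in the contrast between SFN and the YWHA isoforms was not tested. Nor was that of the labelling controls: all 24 probe sets for bacterial poly-A RNA spiked in before labelling read lower with Sox2 (median -0.75).

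The members also differ in how far near-identical copies could enter their signal. The annotation names 10 pseudogenes each for YWHAQ and YWHAZ, 7 for YWHAE and 2 for YWHAB, and none for YWHAG, YWHAH and SFN. The brightest probe sets of the 4 isoforms with pseudogenes all carry the suffix _s_at, which marks probes shared by several transcripts, and those of YWHAG and YWHAH do not. Single values of YWHAB, YWHAE, YWHAQ and YWHAZ are uncertain to that extent. The part of such copies in the differences was not tested. No probe set lists a member together with another gene.

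Genes whose proteins work with the family were taken from written lists. Of 45 genes past the filter that encode proteins bound by 14-3-3 at a phosphorylated site, 1 was at least 2-fold higher, none was lower by as much, and 44 were under 2-fold, where 2.05% of all genes past the filter were higher by as much and 0.645% lower. The partners had a median log2 difference of 0.011 against -0.0032 for all genes, and -0.019 when probe sets were averaged. For the 6 partners whose higher value reached the 95th percentile of intensities it was 0.74, a choice made after seeing the data. By direction 25 were above 0 and 20 below. The gene past 2-fold was MDM4, an inhibitor of p53, which read 313.7 with Sox2 and 125.1 in the control (2.51-fold). Its second probe set past the filter differed by 0.69. At 1.5-fold 5 were higher and none lower, where 6.46% of all genes were higher and 3.77% lower. The other 4, named after their values were seen, were MARK2 (257.9 against 142.1), a polarity kinase, NDEL1 (89.38 against 52.06), which acts with dynein, SOS1 (427.3 against 250.9), an exchange factor for RAS, and PPP1R12A (243.3 against 148.4), the targeting subunit of myosin phosphatase. A second MARK2 probe set past the filter differed by -0.23 and one of NDEL1 by 0.22. Other probe sets past the filter gave 0.17 and 0.38 for SOS1 and 0.47 for PPP1R12A.

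The following partners were also named after their values were seen. All were under 1.5-fold by their brightest probe set. BAD, which promotes apoptosis until 14-3-3 holds it in the cytoplasm, read 86.08 against 75.4 (0.19), with -0.16 and -0.18 for its other probe sets past the filter. YAP1, the Hippo effector kept out of the nucleus by 14-3-3, read 31.28 against 35.65, and its relative WWTR1 96.71 against 96.56. Among the phosphatases that start mitosis, CDC25A read 64.73 against 59.61 (with 0.63 for a second probe set), CDC25B 77.56 against 86.07, and CDC25C, the partner through which 14-3-3 delays mitosis, 54.14 against 75.45. That last difference, -0.48, was the largest downward among the partners, with other probe sets of CDC25C at -0.46 and 0.40. FOXO3, a transcription factor that 14-3-3 helps to export from the nucleus, read 43.66 against 58.98 (-0.43).

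Kinases that make 14-3-3 binding sites were the next list. By the brightest probe set, 4 of 25 past the filter were at least 2-fold higher, none lower and 21 under 2-fold, where 2.05% of all genes were 2-fold higher and 0.645% lower, with a list median of 0.31. Past the 95th percentile of intensities, a level taken after seeing the data, 210 of 2235 genes were 2-fold higher and 58 lower. Of the 5 kinases at that level 3 reached 2-fold, LATS2, SGK1 and CAMK2D. MDM4, and COP1 and ZEB2 of the lists below, also lay at that level. LATS2, the Hippo kinase that phosphorylates YAP1, read 1255 against 518.4 (2.42-fold), SGK1, a kinase related to AKT, 915.6 against 418.7 (2.19-fold), CAMK2D, a calcium-dependent kinase, 573.4 against 270.9 (2.12-fold), and CHEK1, the checkpoint kinase that phosphorylates CDC25 proteins, 74.7 against 36.99 (2.02-fold). Probe sets disagreed here too. Other LATS2 probe sets above the filter gave 0.13 and -0.22, the other CHEK1 probe set by -0.081 and those of CAMK2D by 0.42 and 0.21, while SGK1 had no other past the filter. Among kinases under 2-fold by the brightest probe set, another of AKT2 differed by -1.06 and another of CAMK2G by 1.28, both named after their values were seen. Averaging the probe sets left 1 of the kinases at 2-fold, and lowess centring or quantile normalization 2. The list median stayed above 0 under all alternatives run, from 0.14 with a pseudocount of 64. The highest was 1.08, for the 5 kinases past the 95th percentile of intensities, a choice made after seeing the data. Centring on the spike-ins, which shifts every gene upward alike, gave 1.06. The other alternatives gave at most 0.44.

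**Figure D3:**
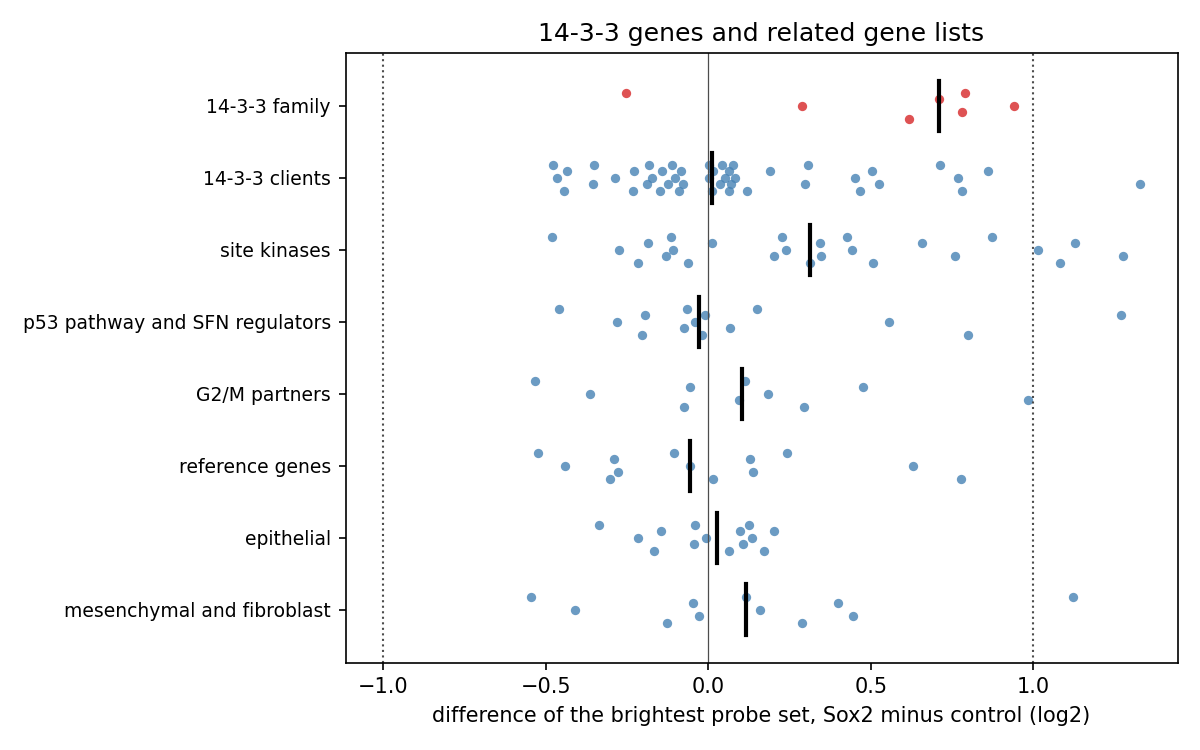
Log2 difference, Sox2 minus control, of the brightest probe set of each gene past the filter, by list, with a black bar at the list median and dotted lines at 2-fold. The 14-3-3 family (red) lies between -0.25 and 0.94, the partner genes centre on 0.011 and the kinases on 0.31.

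A further list held p53 pathway genes and regulators of SFN. Of its 14 genes past the filter 5 lay above 0 and 9 below, with a median of -0.030. For the 3 past the 95th percentile of intensities, a choice made after seeing the data, the median was 0.55, which is the value of 1 gene. COP1, a ubiquitin ligase for p53, was at least 2-fold higher at 421.1 against 174.8 (2.41-fold, with 0.99 for a second probe set), none was lower by as much and 13 were under 2-fold, where 2.05% of all genes were higher and 0.645% lower. CDKN1A, the p53 target that inhibits CDKs, named after its value was seen, read 95.4 against 96.0. Among 10 genes past the filter from a list of cell cycle genes around G2 and mitosis, none reached 2-fold by the brightest probe set, where 2.69% of all genes did in either direction. CCNB1, the mitotic cyclin whose complex SFN holds in the cytoplasm, differed most at 50.03 against 25.32 (0.98), while another probe set of CDK1, the kinase it activates, named after its value was seen, differed by -1.003. The list median was 0.10, or -0.058 once the _x_at and _s_at probe sets were left out. None of 13 other reference genes reached 2-fold, a count near the same 2.69%. PGK1, a glycolytic enzyme, differed most by its brightest probe set at 357.8 against 208.6 (0.78), close to the 0.79 of YWHAZ. Its other probe sets past the filter gave 0.44 and -0.14. The median of the reference genes was -0.056. In the epithelial list, where SFN belongs by its usual expression, none of 14 genes past the filter reached 2-fold, again near 2.69%, the largest difference was -0.34 for KRT18, and the median was 0.028, which turned to -0.012 when probe sets were averaged. In the mesenchymal and fibroblast list 1 of 11, ZEB2, a repressor of epithelial genes, was at least 2-fold higher at 298.5 against 137.1 (2.18-fold), where 2.05% of all genes were higher. Other ZEB2 probe sets gave 0.96, 0.65 and -0.056. The list median was 0.12, or -0.095 under quantile normalization. In the leukocyte and endothelial list CD3E differed most, at 81.96 against 71.43. In bulk RNA fewer cells of a type and less RNA per cell cannot be told apart.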

How the data were processed

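Biotin-labelled cRNA from 1 sample a group was read on Affymetrix arrays of 54675 probe sets. The authors deposited 1 linear intensity for each probe set and array. Per the submitters' processing notes the tool was RMA, with version and settings not given in the sources used here, and since RMA usually ends in log2 values, the last step is not known. The medians were 34.25 and 34.26. For the main values log2 was taken with no scaling or pseudocount. Probe sets were named by the platform annotation, with symbols updated by gene ID through RefSeq for GRCh38.p14 (41037 of 41091 single-gene probe sets matched). A gene was represented by its probe set of highest mean log2 value. No detection calls were available to this work, and the number of arrays limits the precision.

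The members, lists, length classes and level windows were chosen with earlier results of these data known. The genes named are all members, SOX2, the epithelial markers EPCAM, CDH1, KRT8, KRT18 and KRT19 with VIM, and from each list up to 6 genes at 2-fold, or that of largest difference where none reached it. Other genes were named after their values were seen, as said beside them. No test between conditions was made. The counting and the technical SD were tested on simulated data. Alternatives covered the probe set, scaling, pseudocounts of 16 and 64, the filter and a fold of 1.5. Python 3.11.15, numpy 2.4.6, pandas 2.3.3, statsmodels 0.14.6 and matplotlib 3.10.9 were used.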

Additional observations from a re-analysis of the deposited data

How the results depend on the processing

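The difference of SFN kept its direction under the alternatives run, from 0.17 with averaged probe sets to 1.04, and that of the YWHA median from 0.38 with averaged probe sets to 1.496. None of these alternatives took SFN probe set 209260_at alone, which read lower (-0.27), so they do not settle the direction of SFN. The upper values come from centring on the spike-ins, which adds 0.75 to every gene and gave YWHAE 0.50, the YWHA median 1.496, SFN 1.04, the median of the partner genes 0.76, and 5 YWHA isoforms, 11 partner genes and 2872 genes at 2-fold, 99.9% of them higher. SFN minus the YWHA median lay between -0.49 (without YWHAE, added after seeing the data) and -0.20. Taking the probe set of largest difference, or leaving out those ending in _x_at or _s_at, put 1 YWHA isoform (YWHAZ) at 2-fold, and the second choice left no probe set for YWHAB and YWHAE. A fold of 1.5 counted 5 YWHA isoforms, 5 partner genes and 1458 genes, 63.2% of them higher against 76.0% at 2-fold. Averaged probe sets left 0 partner genes and 117 genes (59.8% higher), leaving out _x_at and _s_at 0 and 233, and a pseudocount of 64 0 and 114. Quantile normalization gave 64.5% higher of 330. With the filter at the 95th percentile, added after seeing the data, 6 partner genes were left, with a median of 0.74. The causes of these changes were not tested, beyond the shift that the spike-ins make by construction. No paired analysis was possible because each group has 1 array.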
